A study of Mus musculus with 6 samples.

Results

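The wild-type contact map described here is the 1 library of 6 in the series that is labelled genotype WT. It was chosen by that label alone. Capture Hi-C was performed on limb buds of WT mouse embryos at E12.5, which in this series serve as the control for mice with duplications or a boundary deletion at the same locus. No mutant allele or treatment is given for the WT library. The series' design text speaks of distal limbs. The sources used here do not state how many embryos were pooled or their strain, and DNA contacts hold no marker by which the tissue could be checked. Since there was 1 library, no replicate spread exists and no p-value is given. All intervals are exact 95% intervals (Poisson for counts, Clopper-Pearson for shares) that cover counting error only.

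In Hi-C, fragments of DNA that are near each other in the fixed nucleus are joined and read as pairs, and in the capture form probes enrich the pairs from a chosen region. Such maps show domains, stretches of chromatin whose parts meet each other more often than they meet the neighbouring stretch, separated by boundaries. Many boundaries bind the protein CTCF, which halts the ring-shaped cohesin complex as it extrudes loops of DNA, and focal contacts between such sites appear as dots at the corners of domains and as stripes along their edges. The captured locus includes Sox9, which codes for a transcription factor needed for cartilage formation and whose regulatory elements are spread over a large gene desert, and Kcnj2 and Kcnj16, which code for potassium channels. By the gene order of GRCm38, the locus runs from Abca5 through Map2k6, Kcnj16, Kcnj2, Gm11677 and Sox9 to Slc39a11 and Sstr2. As background, the boundary between the Kcnj and the Sox9 domains has both Kcnj genes towards the centromere and Sox9 towards the telomere. Genes were not placed on the map, whose build differs from that of the gene table.

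The map covered chromosome 11 from 109010001 to 114880000 in mm9, 5870 kb in 587 bins of 10 kb. It held 7051882 contacts, and 96.1% of the 172578 possible bin pairs had at least 1. Same-bin contacts made up 18.4% of the total and those of neighbouring bins 11.4%. A further 20.5% lay at 20 to under 100 kb, 25.5% at 100 to under 500 kb, 11.6% at 500 kb to under 1 Mb, 8.13% at 1 to under 2 Mb and 4.41% at 2 Mb or more. The depth behind a single bin pair therefore falls steeply with distance: the median pair held 66 contacts at 100 to under 500 kb and 3 contacts at 2 Mb or more. Contact sums per bin ran from 222 to 50434 with a median of 21345. By contacts at least 2 bins apart, 10 bins were of low coverage, under 25% of the median bin's sum of such contacts, and 7 of them lay in the last 80 kb of the map.

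**Figure D1:**
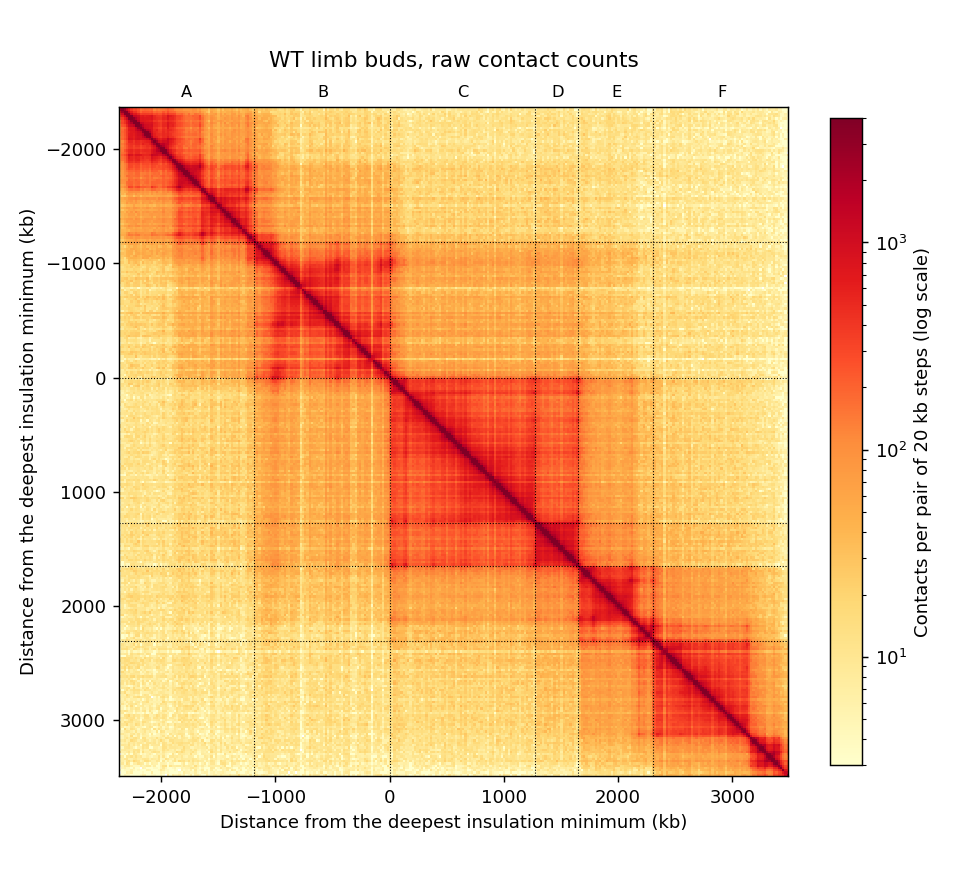
Raw contacts in WT limb buds, summed in steps of 20 kb, with both axes in kb from the deepest insulation minimum and the colour on a log scale. Dotted lines mark the 5 minima M1 to M5 and letters the 6 domains A to F; squares of dense contact run along the diagonal, and the squares of C and D lie inside a larger one.

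The first question was where contacts along the locus are interrupted. The insulation score of a bin is the mean raw count of contacts that pass over it within 500 kb on either side, as a log2 ratio to the mean over all such bins, so that a low score marks a boundary. Prominence is the depth of a minimum below the lower of its flanking rises. Minima that reached 0.3 log2 in prominence numbered 5 of 487 bins (1.03%), and are called M1 to M5 from the centromeric side. The deepest was M2, the bin 111380001 to 111390000, at -1.46 (-1.47 to -1.45) with a prominence of 2.03, where 50581 contacts passed over. Of the other four, M1 at 110190001 reached -1.34 (-1.35 to -1.33) with a prominence of 1.32. M4 at 113030001 had a score of -0.91 (-0.92 to -0.90) and the same prominence of 1.32, and M5 at 113690001 had -0.87 (-0.88 to -0.86) and 0.92. M3 at 112650001 was a shallow notch inside a region of dense contact, at -0.08 (-0.09 to -0.07) with a prominence of 0.31.

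These minima differed in how far their position and depth depended on the scale of reading. M2 and M4 recurred within 50 kb under all 8 other settings tried. M1 and M5 did so under 7, and M3 under 4. These settings include prominence cutoffs of 0.15 and 0.6 on the same score. Their outcome was fixed by the prominences given above, so they are no check of position. With KR-normalised values, in which every bin has the same contact sum, M1 had no minimum within 50 kb and the nearest lay at 110350001, and M3 had none within 50 kb either. M3 grew deeper as the diamond shrank: its score was -0.61 with 200 kb and -0.83 with 100 kb, whereas with 1 Mb it was above the map's mean at 0.13.

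**Figure D2:**
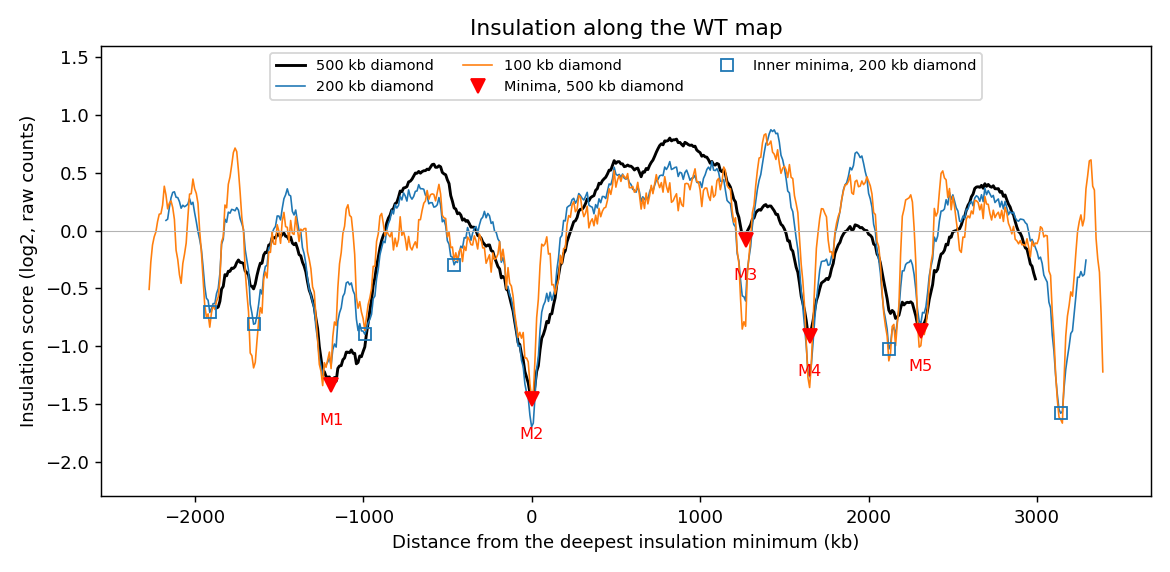
Insulation score (log2, raw counts) along the map in kb from M2, read with diamonds of 500, 200 and 100 kb; triangles mark M1 to M5 and open squares the 6 inner minima of the 200 kb diamond. M2 is the deepest of the 500 kb curve at -1.46, and M3 at -0.08 is a notch that deepens with smaller diamonds.

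Separation was also read at fixed distances, and M2 had the strongest. The pairs used, 100 to 400 kb apart across a minimum, all lie within its 500 kb diamond. This reading is therefore not independent of the score that chose the minima. Pairs 100 to 400 kb apart that crossed M2 averaged 28.9 contacts, against 100.9 for pairs at these distances that crossed no minimum, a ratio of 0.286 (0.282 to 0.290). The ratio was 0.374 (0.370 to 0.379) at M1, 0.409 (0.404 to 0.414) at M4, 0.521 (0.516 to 0.527) at M5 and 0.692 (0.686 to 0.698) at M3. With raw counts M2 was thus crossed least and M3 most, and none of these intervals overlapped. KR-normalised values kept M2 at the low end with 0.30, but changed the order of the others. They gave 0.332 at M4, below the 0.480 of M1, and 0.508 at M3, below the 0.576 of M5. The insulation score with KR-normalised values was likewise lower at M4 (-1.10) than at the bin of M1 (-0.93).

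The minima divided the map into 6 domains, here A to F. A (109010001 to 110190000) and F (113700001 to 114880000) are incomplete because the map ends inside or at them. B (110200001 to 111380000, 1180 kb) lies on the centromeric and C (111390001 to 112650000, 1260 kb) on the telomeric side of M2. D (112660001 to 113030000, 370 kb) and E (113040001 to 113690000, 650 kb) follow. Of the contacts made by the bins of B, at 2 or more bins apart, 55.4% (55.3 to 55.5) stayed in B, and C kept 55.9% (55.8 to 55.9). The short domains kept less, 28.7% (28.6 to 28.8) in D and 40.6% (40.5 to 40.7) in E, while A kept 66.0% and F 65.5%, both without any contacts beyond the map's ends.

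C and D were the adjacent pair with the most contact. They contacted each other 1.57 times (1.56 to 1.57) as often as the mean of all pairs at the same distances. The value for C with itself was 1.38 (1.38 to 1.39), but the ranges of distance differ. Under 500 kb, C with D lay below the mean, at 0.857 (0.851 to 0.864), and at 0.645 with KR-normalised values. Over all distances, each other pair of adjacent domains lay below 1. The values were 0.500 for A with B, 0.698 for B with C, 0.515 for D with E and 0.641 for E with F. Taken across M3 as 1 stretch, a choice made after seeing the data, 111390001 to 113030000 spanned 1640 kb and kept 68.1% (68.0 to 68.2) of its contacts. The bins of C and D are also the best covered, with median contact sums of 28374 and 27822 per bin, against 17665 in A and 17967 in F. Over all distances, KR-normalised values, which remove such differences, gave 1.22 for C with D, 1.08 for C with itself and 1.08 for D with itself.

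Contacts fell with distance more slowly inside most domains than over the whole map. The mean count per bin pair was 159.9 at 100 kb, 96.2 at 200 kb, 58.0 at 400 kb, 28.3 at 800 kb, 7.54 at 2000 kb and 2.75 at 4000 kb. On log axes the slope, or decay exponent, was -0.74 ± 0.0036 (SE of the fitted line) over 50 to 500 kb and -1.41 ± 0.0074 over 500 kb to 3 Mb. Over 50 to 500 kb it was -0.51 ± 0.017 in B, -0.55 ± 0.0092 in C and -0.62 ± 0.020 in E, while A had -0.74 ± 0.021 and F -0.73 ± 0.0075. D gave -0.42 ± 0.024, over distances up to 320 kb only. These errors treat neighbouring distances as independent, which they are not, so they are too small.

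The gap to the whole map opened with distance. At 100 kb the pairs inside B averaged 149 contacts (147 to 151), slightly below the whole map, and at 800 kb they averaged 55.1 (52.7 to 57.5), 1.94 times the whole map. C had 191 contacts (189 to 194) at 100 kb and 61.1 (58.9 to 63.4) at 800 kb, 2.16 times the whole map. F stood at 1.01 times the whole map at 800 kb, with 28.7 contacts (26.8 to 30.7), and at 1.33 times with KR-normalised values. A was below it at 800 kb, at 17.8 contacts (16.4 to 19.2) or 0.627 times, and at 0.913 times with KR-normalised values. Both A and F hold inner minima, described next, and the part of these in the values at 800 kb was not tested.

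**Figure D3:**
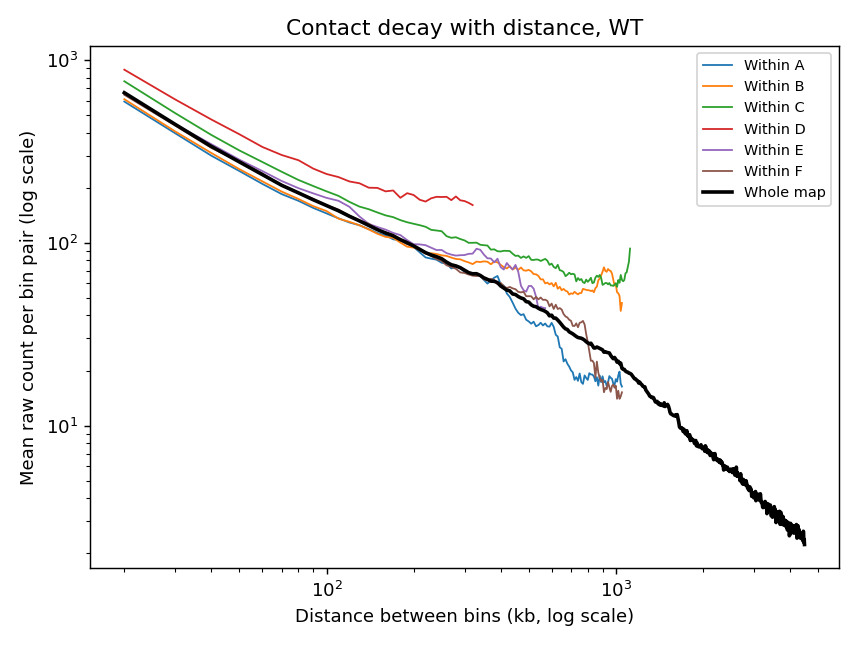
Mean raw count per bin pair against the distance between bins, both on log axes, for the whole map (thick line) and for pairs within each of the domains A to F. At 800 kb the curves of B (55.1) and C (61.1) lie above the whole map (28.3) and that of A (17.8) below it.

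Finer structure was read with a 200 kb diamond, which called 11 minima among 547 bins (2.01%). Of these, 5 lay within 50 kb of M1 to M5, and 6 were new. Domain A held a pair at 109470001 (score -0.71, prominence 0.91) and 109730001 (-0.81 and 1.15), which cut it into pieces of 460, 250 and 450 kb. Domain B held 110390001 (-0.90 and 0.45) and 110920001 (-0.30 and 0.46), giving pieces of 190, 520 and 450 kb. E was cut at 113500001 (-1.03 and 1.39) into 460 and 180 kb, and F at 114520001 (-1.58 and 1.33) into 820 and 350 kb. C and D had no inner minimum on this scale with raw counts. The minimum in F was near M2 in depth on the same scale with raw counts (-1.70 at M2), but shallower with KR-normalised values, at -1.06 against -1.60 at M2. It and 109470001 lie too near the map's ends for the 500 kb diamond. All 6 recurred within 50 kb with KR-normalised values, which called 7. The additional minimum lay inside C at 112040001, with a score of -0.23 and a prominence of 0.37. With a 100 kb diamond and raw counts, C held minima at 111520001 (score -0.55, prominence 0.50), 112250001 (0.17 and 0.35) and 112390001 (0.21 and 0.33). The first of these was also called with KR-normalised values on that scale, at -0.63.

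The piece of B next to M1 had low contact with its neighbours and high contact with distant stretches. This 190 kb stretch, 110200001 to 110390000, contacted the neighbouring 520 kb piece of its own domain 0.676 times (0.670 to 0.682) as often as the mean at these distances, and the piece of A on the other side of M1 0.461 times (0.456 to 0.466). With the far end of B, 110930001 to 111380000, it was enriched 1.82-fold (1.80 to 1.84), and with C 1.57-fold (1.56 to 1.59). The enrichment was higher still with D, at 2.81-fold (2.76 to 2.87), and with the first 460 kb of E, at 2.27-fold (2.22 to 2.31). The other pieces of B were also above the mean with D, at 1.85 (1.83 to 1.87) for the 520 kb and 1.43 (1.42 to 1.45) for the 450 kb piece, and with the first part of E, at 1.45 (1.43 to 1.47) and 1.16 (1.15 to 1.18). For the 190 kb stretch, KR-normalised values gave 0.664, 0.612, 2.10, 1.52, 2.55 and 2.23 in the same order. The stretch thus met both direct neighbours less often and several distant stretches more often than the mean at those distances.

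Focal contacts, single bin pairs that stand above their surroundings, were called on KR-normalised values by fold. A pair had to reach at least 2 times the mean at its distance and 1.5 times the ring of pairs 3 to 5 bins around it, with a raw count of at least 30. Of 159906 pairs at least 100 kb apart, 770 passed (0.482%), which merged to 145 peaks (0.0907%). Domain edges and stripes can pass this rule too. A stricter one, added after seeing the data, asked that the lower bound of the count's interval be at least 1.5 times the highest of 5 neighbourhoods, the 4 arms of a cross and the corner towards the diagonal. It kept 32 isolated peaks (0.02% of the pairs), 100 to 1630 kb apart with a median of 465 kb, and with 76 to 856 contacts each (median 283.5). Of these, 31 were also called with raw counts within 30 kb.

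A grid of peaks lay across C and D. It held 5 of the 10 peaks with the highest ratio to the ring, and the others of these lay in A and E or joined M4 to E. Of the 32, 3 lay in C and 4 joined C to D. The first joined 111390001 with 113020001, the outer corners of C and D next to M2 and M4. That pair of bins lay 1630 kb apart and held 330 contacts, against a mean of 11.5 at its distance. Its KR value was 23.3 times the mean, and 3.17 times (2.84 to 3.53) the highest of its 5 neighbourhoods. The bin 111510001, further inside C, contacted 113020001 in 338 contacts against a mean of 13.0, 24.0 times the mean and 3.43 times (3.07 to 3.81) its surroundings.

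The same bins of C also met the notch at M3. The pair of 111510001 with 112640001, 1130 kb apart, had 222 contacts against a mean of 19.1, 15.5 times by KR value and 4.05 times (3.54 to 4.62) its surroundings, the highest such ratio among the 32. That of 111390001 with 112640001 had 178 contacts against 16.3, or 13.0 times and 3.20 times (2.75 to 3.71). M3 and M4 were joined as well: 112640001 with 113020001, 380 kb apart, had 251 contacts against 61.5, or 5.07 times and 2.54 times (2.23 to 2.87). A further bin of C, 111760001, contacted 112640001 (117 contacts, 6.42 times the mean) and 113020001 (137 contacts, 8.55 times). It was named after its values were seen. Thus 3 bins on the M2 side each met the same 2 bins, 1 beside M3 and 1 beside M4.

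**Figure D4:**
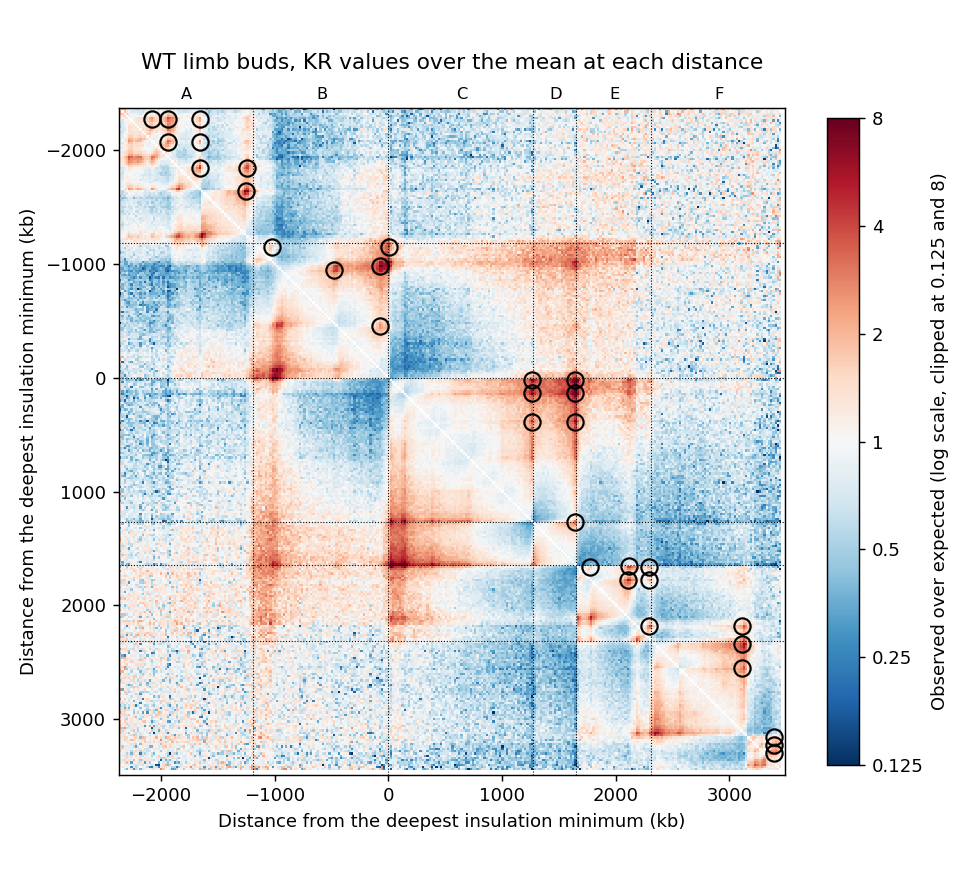
KR values over the mean at each distance (clipped log colour scale) in steps of 20 kb, with both axes in kb from M2, dotted lines at M1 to M5, and circles at the 32 isolated peaks. A grid of circles joins 3 bins near M2 to 2 bins at M3 and M4, with KR values of up to 24.0 times the mean.

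Domain B had a weaker set of peaks on a high local level. Its highest by the ring was 110390001 with 111300001, 910 kb apart, with 386 contacts against a mean of 25.2, 10.9 times by KR value but only 1.89 times (1.71 to 2.09) its surroundings. The corner from M1 to M2, 110220001 with 111380001, held 146 contacts against 18.0, or 6.10 times the mean and 1.94 times (1.64 to 2.28) its surroundings. In all, 5 isolated peaks lay in B or joined it to M2, and none of the 32 crossed M2. Of the 32, 5 (15.6%) crossed any of M1 to M5, as did 30.2% of eligible pairs with 30 or more contacts. The share of eligible pairs that cross M2 was not counted. Among the 145 called by the first rule, 17 crossed M2. The highest of these was 110350001 with 113020001, 2670 kb apart, with 51 contacts against 5.29 and 7.44 times the mean by KR value. At 1.86 times (1.38 to 2.44) its surroundings, it did not meet the stricter rule. That rule's interval widens as counts fall, so it asks more of distant pairs.

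Outside the central domains, A held 8 isolated peaks, E held 5 and F held 5, and D held none inside it. D is the shortest domain at 370 kb, and the share of pairs called per domain was not worked out. In A, 109530001 with 109720001 had 612 contacts against 100.0 and stood 3.38 times (3.12 to 3.66) above its surroundings. The bin of the inner minimum itself, 109730001, met 110120001 in 577 contacts against 60.5, 3.06 times (2.82 to 3.32) its surroundings. The third named peak of A joined 109300001 with 109720001, with 136 contacts against 55.1 and a ratio of 3.56 (2.98 to 4.21) to its surroundings. In E, 113560001 with 113670001 had 856 contacts against 149.6, or 3.44 times (3.21 to 3.68). The peak from the M4 bin itself, 113030001 with 113490001, had 238 against 50.8 and a ratio of 2.33 (2.05 to 2.65). In F, 113720001 with 114490001 had 235 contacts against 29.7 and a ratio of 2.21 (1.94 to 2.51). The peak of 113560001 with 114490001 crossed M5, with 103 contacts against 25.1 and a ratio of 2.2 (1.80 to 2.67). Across M1 and M4 the highest calls of the first rule, 109730001 with 110210001 (82 contacts) and 111400001 with 113490001 (48 contacts), were not isolated.

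Peak ends and minima lay close together. Of the 32 isolated peaks, 22 (68.8%) had an end within 20 kb of M1 to M5 or of the 6 inner minima, as had 21.5% of all eligible pairs with 30 or more contacts. Peaks and minima were read from the same map, so this is a description of it. Direction was read for the 18 bins with at least 2 isolated peaks. All partners lay on the telomeric side for 8 and on the centromeric side for 7, and 3 had partners on both. The bins 109100001 and 114770001 lie so near the map's ends that partners could be called on 1 side only. Of the 16 bins without them, 7 had all partners on the telomeric side, 6 had all on the centromeric side and 3 had partners on both. Many of these bins had only 2 peaks, and the share expected without a preferred side was not worked out. Of 10 stretches of 50 kb with 3 or more isolated peaks, 4 had all partners on 1 side, but some of these stretches span a minimum. The direction turned at M4 and at M2. The bin 113020001, just centromeric of M4, had 4 partners, all on the centromeric side, while 113030001 and 113040001 had 1 and 2 partners, all on the telomeric side. At M2 the only partner of 111380001 lay on the centromeric side, and the 2 partners of 111390001 lay on the telomeric side. At M3 it did not, since 112640001 had 3 partners on the centromeric side and 1 on the telomeric side.

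Stripes, lines of contact that run from 1 bin to 1 side, were called where a bin's mean KR value over 100 to 1000 kb on that side was at least 1.3 times the mean at those distances and at least 1.2 times that of the bins 3 to 6 bins away. On the telomeric side 18 of 484 bins were called (3.72%), which formed 9 stripes, and on the centromeric side 16 of 478 (3.35%), which formed 7. The strongest towards the telomere started at 110400001 (2.77 times), 113720001 (2.12 times) and 111510001 (1.95 times), where the median bin had 0.922. Those towards the centromere started at 114490001 (2.71 times), 111300001 (2.58 times) and 112640001 (2.30 times), where the median bin had 0.951. All 6 bins, or a bin next to them, also ended an isolated peak. Of the map's 587 bins, 35 ended one, and the share with a bin next to them was not counted. A stripe's mean includes peak pairs 100 to 1000 kb apart, so stripes and peaks were not read independently. In B the stripes of 110400001 and 111300001 face each other, and in F those of 113720001 and 114490001 do. With raw counts, 9 of the 9 telomeric and 6 of the 7 centromeric stripes were found again within 30 kb, among 32 stripes called. Over 100 to 500 kb, 7 of the 9 and 5 of the 7 were.

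The contact between B and C across M2 varied with distance. Under 500 kb, B and C contacted each other 0.341 times (0.337 to 0.345) as often as the mean of all pairs at those distances. At 500 kb to 1 Mb the value was 0.539 (0.534 to 0.543), at 1 to 2 Mb 1.03 (1.02 to 1.04), and above 2 Mb 1.92 (1.89 to 1.95) over 13762 contacts. KR-normalised values gave 0.355, 0.517, 0.962 and 1.74. B with D, which cross both M2 and M3, stood at 1.47 (1.45 to 1.48) at 1 to 2 Mb and 2.18 (2.15 to 2.2) above 2 Mb. C with D likewise went through 0.857 (0.851 to 0.864), 1.74 (1.73 to 1.75) and 3.31 (3.29 to 3.34) over the first 3 distance bands. The mean at a large distance is itself taken over pairs that nearly all cross minima, so a value above 1 there says that a pair of domains met more often than other pairs equally far apart, not that they met as often as within a domain.

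C with E rose above the mean in the same way, at 0.676 (0.669 to 0.684) at 500 kb to 1 Mb, 1.14 (1.14 to 1.15) at 1 to 2 Mb and 1.83 (1.78 to 1.88) above 2 Mb. A with C and C with F were also higher in the farther band, but stayed below 1. A with C stood at 0.604 (0.595 to 0.613) at 1 to 2 Mb and 0.704 (0.698 to 0.711) above 2 Mb, and C with F at 0.551 (0.544 to 0.558) and 0.690 (0.683 to 0.697). D also met E and F less often than the mean, at 0.515 (0.511 to 0.519) and 0.475 (0.469 to 0.480) over all distances. A with D, at least 2 Mb apart, was near the mean at 1.12 (1.11 to 1.14), and B with E was above it at 1.3 (1.29 to 1.31).

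**Figure D5:**
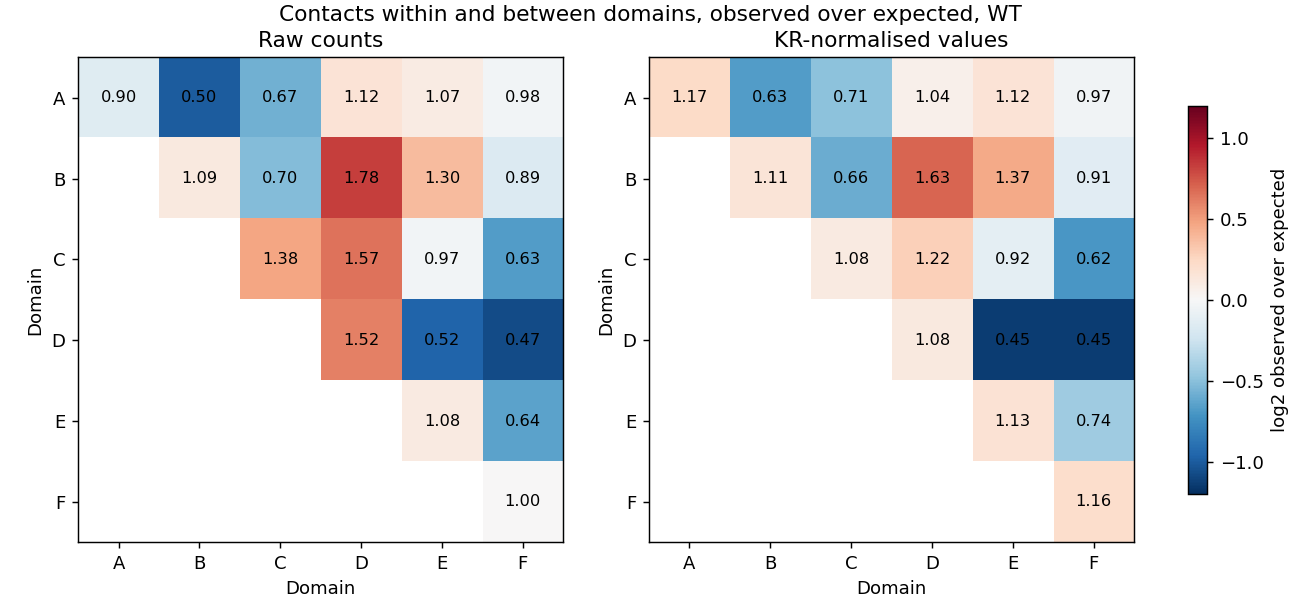
Contacts within and between the domains A to F over the mean at the same distances, with raw counts (left) and KR-normalised values (right), the value printed in each cell and its log2 as colour. B with D is the highest pair with both (1.78 and 1.63), and D with F is at 0.47 and 0.45.

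Contacts of at least 2 Mb numbered 311028, or 4.41% of all. They were read in 741 blocks of 100 kb by 100 kb, each with 135 to 716 expected contacts. Of these, 63 (8.5%) reached 1.5 times the expected number and 120 (16.2%) fell to 1/1.5 of it or below. The high blocks were not spread evenly: 23 of the 26 blocks of B with D, 9 of 10 of B with C and 25 of 78 of B with E were high, and none of the 132 blocks of A with F were. Blocks did not follow the domain edges, and each side was counted to 1 domain. The stretch 112610001 to 112710000, which holds M3, was counted to D, and 113010001 to 113110000, which holds M4, to E. By number, low blocks lay mostly between A and C (48 of 116) and between C and F (41 of 96). The share of low blocks was higher for A with B (9 of 10) and D with F (3 of 3). With KR-normalised values, 54 of the 63 high and 84 of the 120 low blocks still passed the same cutoffs.

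The highest blocks shared a few stretches. Of the top 5, 4 involved 110310001 to 110410000, which holds the inner minimum of B at 110390001. With 112910001 to 113010000 it had 2155 contacts against 550.6 expected, 3.91 times (3.75 to 4.08). With 113010001 to 113110000 the value was 3.59 (3.43 to 3.76), with 112610001 to 112710000 it was 3.26 (3.12 to 3.40), and with 112810001 to 112910000 it was 3.14 (2.99 to 3.29). The other high block joined 111410001 to 111510000 with 113410001 to 113510000 at 3.45 (3.28 to 3.64). All 5 stayed high with KR-normalised values, at 2.53 to 3.14, and the median coverage of the shared stretch was 1.16 times the median bin.

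Each of the lowest 5 blocks had a side in A or F. 109010001 to 109110000 met 111510001 to 111610000 in 173 contacts, 0.338 times (0.289 to 0.392) the expected number, and 111010001 to 111110000 at 0.394 (0.331 to 0.466). Coverage of that first stretch was 0.640 times the median bin, and KR-normalised values were 0.501 and 0.705. The block of 112610001 to 112710000 with 114610001 to 114710000 stood at 0.369 (0.312 to 0.432) and at 0.383 with KR-normalised values. The remaining pair of blocks joined 109410001 to 109510000 to 111510001 to 111610000 (0.387, 0.343 to 0.435) and to 111410001 to 111510000 (0.400, 0.342 to 0.466).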

How the data were processed

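Capture Hi-C reads of 6 libraries, 1 per genotype, were aligned; per the submitters' processing notes the aligner was Bowtie2 2.2.6 and the build mm9. Per the labels' protocols, tissue was dissociated with trypsin, fixed with 2% PFA, and amplified for 4 cycles before and 12 after hybridisation. For WT the authors deposited raw contact counts per pair of 10 kb bins; the file's name marks a mapping quality of 30. They also deposited a signal map after KR (Knight-Ruiz) balancing, in which every bin sums to the same value on testing. The sources used here name no pair filters, duplicate removal or balancing tool. Any amplification duplicates left would make the intervals too narrow.

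Only WT was analysed, with Python 3.11.15, numpy 2.4.6 and scipy 1.17.1. Raw counts were the main values, except for focal contacts and stripes, where KR values were used because single-pair counts follow bin coverage. Pairs under 2 bins apart were left out, and the 10 low-coverage bins were left out of expected values. The expected value is the mean over all pairs at a distance. Domains are stretches of at least 300 kb between successive minima, and an interval of observed over expected takes the expected value as fixed. The named features were all minima, domains and inner minima, the 10 focal contacts with the highest ratio to the ring with the highest per domain and per minimum crossed, the 3 strongest stripes per side, and the 5 highest and 5 lowest long-range blocks; isolated peaks outside these were named after their values were seen. The features and thresholds were chosen with earlier results of these data known. The procedures were tested on simulated data. Motifs, gene starts and sequences were not used here, since they need mm9.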

Additional observations from a re-analysis of the deposited data

How the results depend on the processing

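With 1 library, depth limits single pairs beyond 2 Mb most, and no value has a check against another library. No paired analysis was possible because there is 1 WT library and no test. KR-normalised values moved the decay exponent to -0.78 over 50 to 500 kb and -1.39 over 500 kb to 3 Mb, and medians in place of means to -0.85 and -1.29. The minima numbered 11 with a 200 kb and 17 with a 100 kb diamond, which read finer structure, and inner minima numbered 12 with 100 kb; the score of M3 was above 0 with 1 Mb (0.13). The median share of contacts kept by a domain, 55.6%, was 54.5% with KR-normalised values, 55.7% without low-coverage bins, 45.0% without contacts under 10 bins apart and 36.0% in domains of the 200 kb diamond. The median ratio across minima, 0.409, was 0.480 with KR-normalised values and 0.424 over 100 to 800 kb. Focal contacts, 145 in the main setting, numbered 467 with raw counts, 59 with a ring fold of 2, 580 with a count minimum of 10 and 76 with one of 100. Of alternatives chosen after seeing the data, a count of at least 200 left 33 and the stricter rule 32. The 10 strongest were found under all 7 planned settings. They lie above each changed ring fold and count minimum, so those settings could not drop them. Raw counts, a ring of 4 to 7 bins and a median expected value could have. Stripes numbered 32 with raw counts, against 16. Low long-range blocks made up 26.1% from 1 Mb on. The causes were not tested. For these summaries, the other 24 values lay within 1.5 times (counts) or within the interval of the main one. For single minima and domains, 55 values lay outside it and 21 within it, besides the change of sign at M3. Over 50 kb to 1 Mb the exponent was -1.002 in A, -0.90 in F, -0.52 in C and -0.42 in B. In E, which is 650 kb long, it was -0.67 over the distances that E holds. A, F and E then fell more steeply, and B and C less steeply, than over 50 to 500 kb.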

Other observations

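All 10 bins with the highest raw contacts at 2 or more bins apart fell in domain C between 111420001 and 112610000, led by 112030001 to 112040000 with 50434 contacts in all, 2.36 times the median bin, and 112600001 to 112610000 with 44387, or 2.08 times. None of these 10 bins ended an isolated peak on KR-normalised values. Only 35 of the map's 587 bins did, so finding none among 10 says little about coverage. The bin 112640001, which ended 4 isolated peaks, had 0.872 times the median coverage, and 113020001, which also ended 4, had 1.24 times.

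At the telomeric end of the map, the 350 kb from 114530001 on had the least contact with their neighbour of the 6 pairs of adjacent pieces inside domains. They met the 820 kb before them 0.454 times (0.450 to 0.458) as often as the mean at those distances, and 0.611 times with KR-normalised values. The next lowest pair, the 190 and 520 kb pieces of B, stood at 0.676 (0.670 to 0.682), and at 0.664 with KR-normalised values. The 2 pieces of E met each other 0.689 times (0.682 to 0.695) and 0.811 times. Within this end piece, 114770001 met 114530001, 114600001 and 114670001 in isolated peaks of 142, 340 and 410 contacts. This end also holds 7 of the 10 low-coverage bins, whose part in these values was not tested.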
